A study of Mus musculus with 26 samples.

Results

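Histone chaperones are proteins that escort histones and pass them to DNA or take them from it, without being part of the finished nucleosome. The 10 genes described here code for histone chaperones or chaperone subunits other than the nucleosome assembly proteins of the Nap1 family. They are Nasp, Chaf1a, Chaf1b, Asf1a, Asf1b, Hira, Ssrp1, Supt16, Anp32e and Npm1, found by gene symbol, and they are 10 of 55471 genes in the count table. All 10 passed the filter on low counts, which left 18412 genes to test. Bulk RNA-seq of poly(A) RNA was run on the mouse embryonic stem cell (ESC) line KH2, in 26 libraries taken at days 0, 2 and 4 of differentiation with retinoic acid. The labels give 3 genotypes: cells with a knock-out of NAP1L1 alpha (alphaKO), cells with a knock-out of NAP1L1 (fullKO) and wild-type cells (WT). There were 3 libraries for each genotype and day, except for fullKO at day 0, which had 2. NAP1L1 is itself a chaperone of H2A and H2B, and the question addressed here is how transcripts of the other histone chaperones stood in the knockout cells, before and during differentiation. The library names of each knockout share a prefix of their own, so each knockout may be a single clone, and clone and genotype cannot then be told apart. Whether the replicates come from separate cultures is not given, so p-values measure a spread between libraries that may be technical.

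Newly made H3 and H4 are held by NASP, handed on by ASF1 and placed on freshly copied DNA by CAF-1, while HIRA places the variant histone H3.3 outside of DNA replication. FACT, made of SSRP1 and SPT16, loosens and rebuilds nucleosomes as polymerases pass. ANP32E removes the variant H2A.Z from chromatin, and nucleophosmin, the product of Npm1, is an abundant nucleolar protein that binds histones and takes part in ribosome assembly. ESCs divide quickly with a short G1 phase, and the demand for histone deposition follows DNA replication.

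Total counts were 13537267 to 20569706 per library, and mitochondrial genes took 1.08% to 2.04% of them. All knockout libraries had less Nap1l1 than the WT libraries of the same day, with log2 fold changes of -0.77, -0.47 and -0.20 in alphaKO and of -1.36, -1.23 and -0.79 in fullKO at days 0, 2 and 4. All 8 ESC markers looked at (Pou5f1, Sox2, Nanog, Klf4, Zfp42, Esrrb, Tfcp2l1 and Dppa5a) were detected, and their summed level at day 0 was 5383 to 5545 CPM in alphaKO, 5695 to 5856 CPM in fullKO and 2964 to 3063 CPM in WT, where CPM is the count scaled to a common library size by TMM. In each knockout 6 of the 8 were called higher than WT and 1 lower. Of all tested genes, 17.7% were called higher and 20.9% lower in alphaKO at that day, and 16.2% and 17.7% in fullKO. Much of the gap in the sum was Tfcp2l1, with means of 1484 CPM in alphaKO, 1786 CPM in fullKO and 238.2 CPM in WT. Fibroblast markers, such as a feeder layer would bring, were above 0 as well and differed between the genotypes. The summed level of 8 of them (Col1a1, Col1a2, Col3a1, Lum, Dcn, Thy1, Postn and Fbn1) at day 0 was 1185 to 1834 CPM in alphaKO, 240.9 to 362.8 CPM in fullKO and 2205 to 2942 CPM in WT. All 8 were called lower in each knockout at that day, beside 20.9% of all tested genes in alphaKO and 17.7% in fullKO. At day 2 the sums were 232.2 to 295.8, 100.4 to 111.1 and 682.4 to 743.8 CPM in alphaKO, fullKO and WT, and at day 4 they were 730.8 to 829, 589.5 to 635.2 and 1478 to 1568 CPM. Their part in the knockout comparisons below was not tested.

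Per kilobase of exon, Npm1 had the highest level of the 10 genes and Hira the lowest in all 9 groups. In WT at day 0 the mean levels were 1472 ± 19.4 CPM per kb for Npm1, 213.4 ± 3.66 for Nasp, 175.7 ± 5.23 for Ssrp1, 128.6 ± 3.93 for Anp32e and 112.3 ± 2.15 for Supt16 (SD, n = 3). The other 5 genes formed a low group, with 31.16 ± 1.81 CPM per kb for Chaf1b, 18.97 ± 0.201 for Chaf1a, 17.09 ± 1.6 for Asf1b, 14.21 ± 0.623 for Asf1a and 6.081 ± 0.191 for Hira. By day 4 in WT the order within both groups had changed. Nasp, at 33.66 ± 1.75 CPM per kb, then stood below Ssrp1 at 77.11 ± 4.53 and Supt16 at 42.6 ± 3.03, and did not differ from Anp32e at 31.9 ± 1.7 by more than their spread. Chaf1b, at 4.188 ± 0.577 CPM per kb, stood below Asf1a at 7.063 ± 0.503, while Chaf1a at 8.544 ± 0.132 and Asf1b at 8.446 ± 0.593 lay within each other's spread.

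Transcripts of all 10 chaperones fell in every genotype between day 0 and day 4. Of all tested genes, 35.7% were called lower at day 4 against day 0 in alphaKO, 34.6% in fullKO and 36.7% in WT; a gene is said to be called, or to have risen or fallen, where its edgeR quasi-likelihood test gave an adjusted p under 0.05. The median log2 fold change of the 10 genes was -0.72 in alphaKO, -1.06 in fullKO and -1.29 in WT, and that of all tested genes was 0.08, 0.10 and 0.10. From day 0 to day 2, 8 of the 10 fell in alphaKO (background 33.5%), 8 in fullKO (31.4%) and 9 in WT (34%). The exceptions were Asf1a and Asf1b in alphaKO, Chaf1a and Asf1a in fullKO, and Asf1b in WT. Between day 2 and day 4 all 10 fell in WT, against a background of 29.2%. The call of Hira there was lost without the first WT library of day 2 (adjusted p = 0.0578). It was also lost without the first or second WT library of day 4 (0.0502 or 0.0661). All levels are relative to all RNA of a library, and in bulk samples fewer cells of a type and less RNA per cell cannot be told apart. No untreated libraries of later days are part of the design, so retinoic acid and time in culture cannot be told apart either.

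**Figure D1:**
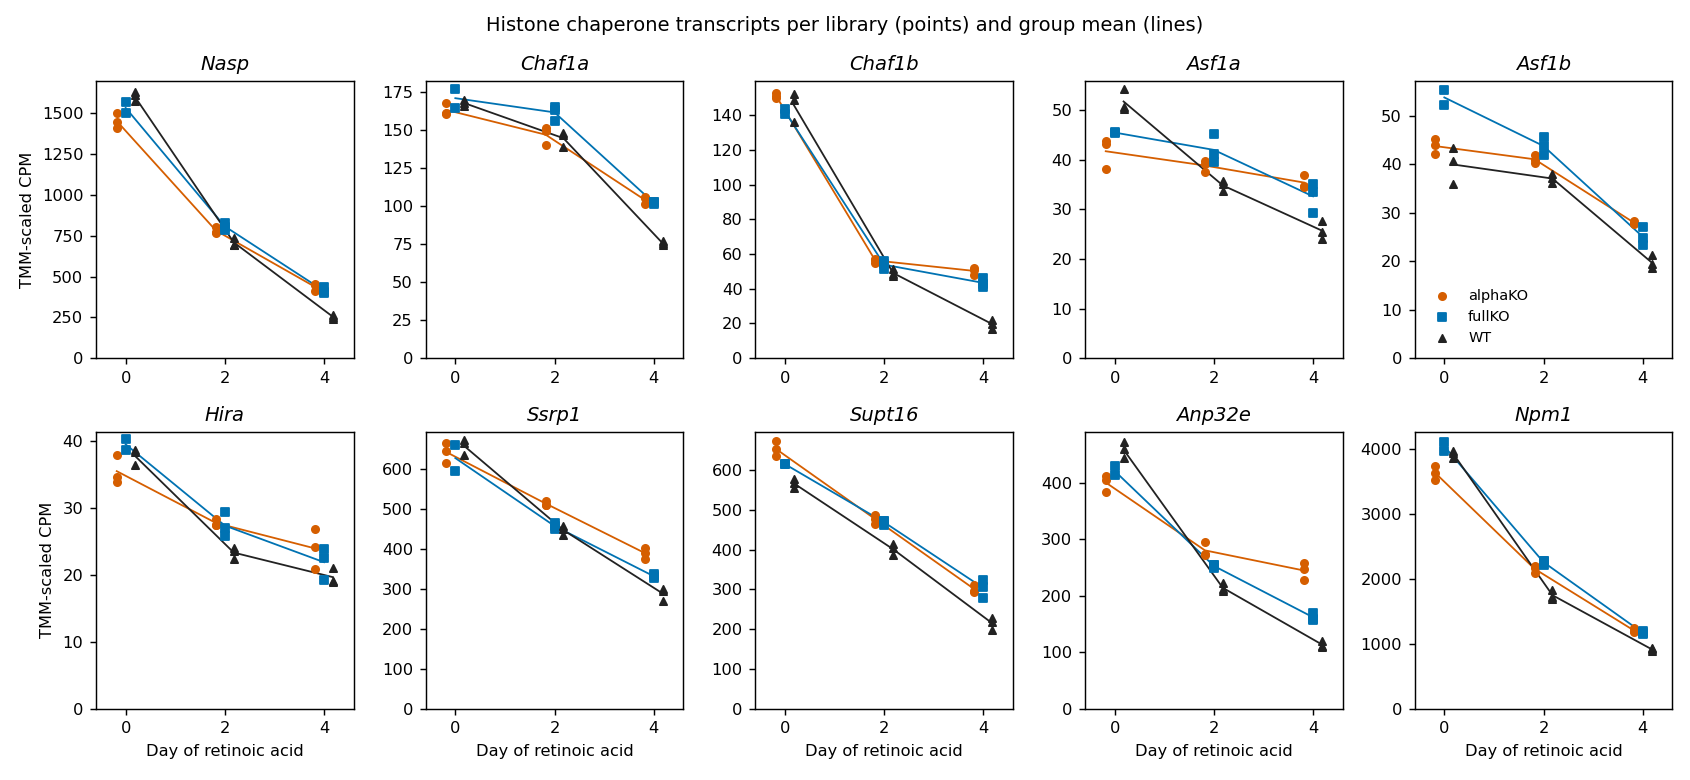
TMM-scaled CPM (y axis) of the 10 chaperone genes in each of the 26 libraries against day of retinoic acid (x axis); points are libraries of alphaKO (orange circles), fullKO (blue squares) and WT (black triangles), and lines join group means. All 10 fell by day 4, and at that day the WT points lie lowest, except that they overlap with knockout points for Hira.

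The knockout lines differed from WT little at day 0 and in the same direction for nearly all members at day 4. At day 0, alphaKO had 1 member higher than WT, Supt16, and 4 lower, Nasp, Asf1a, Anp32e and Npm1, against a background of 17.7% of genes called higher and 20.9% called lower. In fullKO, 1 was higher, Asf1b (background 16.2%), and 1 was lower, Anp32e (17.7%). At day 2, 7 members were higher in alphaKO than in WT (19.9%) and 8 in fullKO (23.8%). By day 4 all 10 were higher in alphaKO (28.7%) and 9, all but Hira, in fullKO (25.1%). The median log2 fold change of the 10 against WT was -0.07, 0.20 and 0.47 in alphaKO on days 0, 2 and 4, where that of all tested genes was -0.03, 0.01 and 0.06. In fullKO it was 0, 0.23 and 0.39, beside -0.01, 0.02 and 0.02 for all genes. Both knockouts were set against the same WT libraries.

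The fall from day 0 to day 4 was smaller in the knockouts than in WT when the difference of the changes was itself tested. It differed from WT for all 10 members in alphaKO, where 24.2% of all genes were called in that direction, and for 8 members in fullKO (19.5%), all but Asf1b and Hira. Anp32e kept 61.1% of its day 0 level at day 4 in alphaKO and 38.5% in fullKO, against 24.8% in WT. Chaf1b kept 33.3% in alphaKO and 30.5% in fullKO, against 13.5% in WT, and Nasp kept 30.1% and 26.9%, against 15.8%. By day 2 the difference of the changes was called for 6 members in alphaKO (background 17.5%), Nasp, Asf1a, Hira, Ssrp1, Anp32e and Npm1, and for 4 in fullKO (15.7%), Nasp, Asf1a, Anp32e and Npm1.

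**Figure D2:**
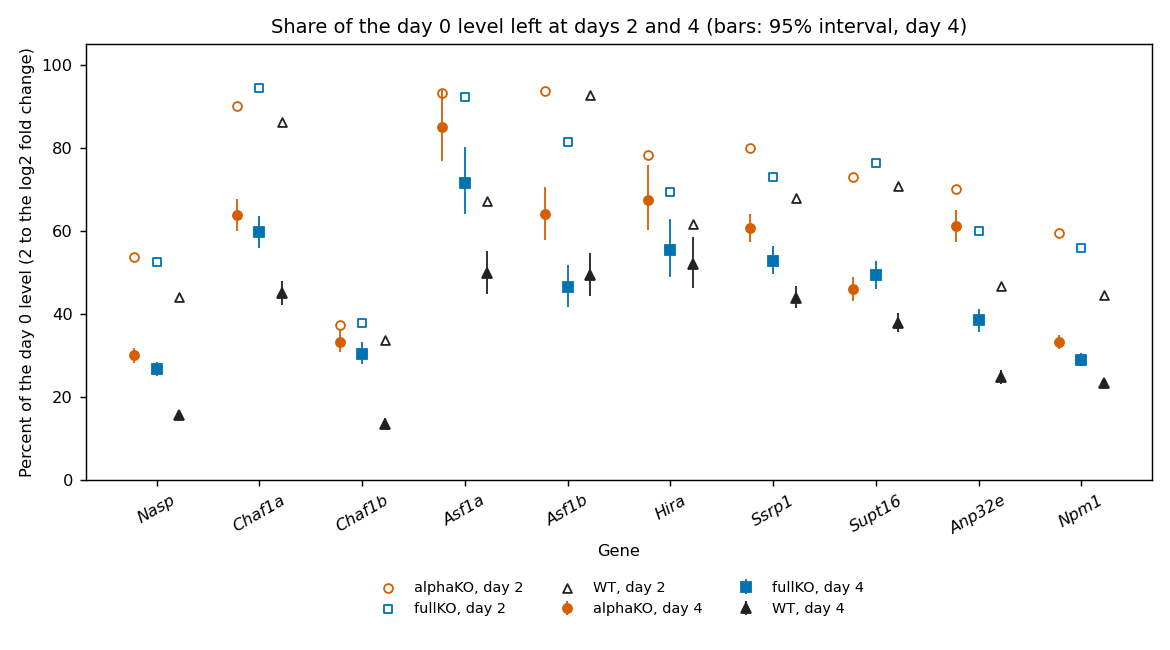
Percent of the day 0 level found at day 2 (open symbols) and day 4 (filled symbols, with 95% intervals of the fit) for each chaperone gene, in alphaKO, fullKO and WT from left to right. At day 4 the WT value is the lowest of the 3 for every gene except Asf1b, where fullKO has 46.6% and WT 49.3%; the WT minimum is 13.5% for Chaf1b.

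Promoter sequences are shown for 4 members: Chaf1a and Chaf1b, subunits of the same complex whose transcripts fell at different times, Nasp, which fell by 2.66 (log2) in WT by day 4, and Hira, whose fall in WT was the smallest. Each is the 250 bases before the RefSeq transcription start (GRCm38.p6), 5′ to 3′ on the strand of the gene. Capitals mark words found on either strand. The words TTGGCGC and likewise TTCCCGC are forms of the site that E2F factors bind at many S phase genes, as are the words TTCGCGC and finally TTGCCGC. The word CCAAT is bound by NF-Y, and the word GGGCGG is the GC box.
Chaf1a (chr17:56040166-56040415, plus strand): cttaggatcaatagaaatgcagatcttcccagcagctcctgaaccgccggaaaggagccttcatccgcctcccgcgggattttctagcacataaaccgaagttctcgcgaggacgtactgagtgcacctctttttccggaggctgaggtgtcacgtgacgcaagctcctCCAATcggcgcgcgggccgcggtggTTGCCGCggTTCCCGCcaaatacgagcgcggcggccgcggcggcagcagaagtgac
Chaf1b (chr16:93883651-93883900, plus strand): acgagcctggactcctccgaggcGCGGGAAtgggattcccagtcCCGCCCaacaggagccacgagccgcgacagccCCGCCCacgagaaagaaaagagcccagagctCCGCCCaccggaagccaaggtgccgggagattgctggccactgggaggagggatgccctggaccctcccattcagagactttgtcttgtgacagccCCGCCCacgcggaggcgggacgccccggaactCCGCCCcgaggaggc
Nasp (chr4:116627952-116628201, minus strand): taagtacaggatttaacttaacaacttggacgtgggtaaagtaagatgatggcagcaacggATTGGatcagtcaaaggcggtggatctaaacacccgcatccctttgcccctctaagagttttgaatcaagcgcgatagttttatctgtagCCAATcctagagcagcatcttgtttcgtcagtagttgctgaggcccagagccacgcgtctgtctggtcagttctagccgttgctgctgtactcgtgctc
Hira (chr16:18876500-18876749, plus strand): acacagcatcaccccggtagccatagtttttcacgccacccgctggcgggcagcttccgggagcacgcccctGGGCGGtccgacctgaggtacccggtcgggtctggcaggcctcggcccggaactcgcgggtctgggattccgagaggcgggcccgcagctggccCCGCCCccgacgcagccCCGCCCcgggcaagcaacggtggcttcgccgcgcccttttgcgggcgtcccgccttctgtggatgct
Chaf1a held 2 E2F words and 1 CCAAT, 81 bases before the start. Chaf1b held 1 E2F word and 5 GC boxes, Nasp 2 CCAAT words, and Hira 3 GC boxes with no E2F or CCAAT word. RefSeq windows were on hand for 9 of the 10 members, with 2 windows for Ssrp1; Npm1 had none. An E2F word stood in a window of 4 of the 9, namely Chaf1a, Chaf1b, Ssrp1 and Anp32e, where that of Anp32e overlaps a CCAAT word. Of the 16017 windows of all tested genes, 12.7% held at least 1 E2F word and 1.36% at least 2. Anp32e and Asf1b each held 4 CCAAT words, and 1.26% of windows of tested genes held at least 4. At least 4 GC boxes were found in 7.51%. These matches describe letters in the windows, and binding was not measured.

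Nasp (ENSMUSG00000028693.15, chromosome 4, 116601052 to 116627941, GRCm38, minus strand) codes for a chaperone that keeps a reserve of H3 and H4. Nasp stood at 1504, 1444 and 1409 CPM in alphaKO, 1566 and 1500 CPM in fullKO and 1628, 1574 and 1610 CPM in WT at day 0. Day 2 gave 765.4, 806.3 and 773 CPM in alphaKO, 786.4, 805.8 and 828.8 CPM in fullKO and 694.4, 738.6 and 694.4 CPM in WT. Its day 4 values were 409.8, 446.9 and 452.9 CPM in alphaKO, 433.6, 404.2 and 397.4 CPM in fullKO and 266.4, 240.1 and 252.7 CPM in WT. The order of the groups turned over with time: every alphaKO and fullKO library was below every WT library at day 0 and above every WT library at days 2 and 4. Against WT, Nasp changed by a log2 fold of -0.14 ± 0.04 (SE, adjusted p = 0.00335) in alphaKO at day 0 and of 0.79 ± 0.04 at day 4 (adjusted p = 1.42e-20). In fullKO it was -0.07 ± 0.04, not called, and 0.70 ± 0.04 (adjusted p = 9.98e-19). The Nasp-ps1 pseudogene had at most 2 counts in any library.

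The ASF1 genes code for a pair of related proteins that pass H3 and H4 to CAF-1 or HIRA, and ASF1B is the form tied to dividing cells. Asf1a (ENSMUSG00000019857.7, chromosome 10, 53596757 to 53609225, plus strand) had 43.18, 43.75 and 38.14 CPM in alphaKO, 45.28 and 45.63 CPM in fullKO and 50.64, 50.18 and 54.32 CPM in WT at day 0. Asf1a values at day 2 were 39.71, 39.13 and 37.6 CPM in alphaKO, 39.56, 41.11 and 45.22 CPM in fullKO and 35.17, 35.67 and 33.6 CPM in WT. Asf1a at day 4 had 34.78, 36.88 and 34.47 CPM in alphaKO, 35.01, 29.34 and 33.44 CPM in fullKO and 25.45, 24 and 27.63 CPM in WT. Groups of knockout and WT libraries did not overlap on any of the days, with the knockouts below WT at day 0 and above it later. Asf1a differed from WT by a log2 fold change of -0.31 ± 0.07 at day 0 in alphaKO (adjusted p = 0.000254) and 0.46 ± 0.08 at day 4 (adjusted p = 1.22e-06); in fullKO it was -0.19 ± 0.08 at day 0 (adjusted p = 0.0598) and 0.34 ± 0.08 at day 4 (adjusted p = 0.000192). Asf1a kept 85% of its day 0 level at day 4 in alphaKO and 71.6% in fullKO, against 49.8% in WT. Its exons share 1748 bases with Mcm9 on the opposite strand, whose median count was 400.5, and reads of these genes cannot be told apart if counting ignored strand. Mcm9 had log2 fold changes against WT of 0.32, 0.03 and 0.55 in alphaKO at days 0, 2 and 4, and of 0.16, 0.25 and 0.69 in fullKO, of which those at day 0 and day 4 in alphaKO and at day 2 and day 4 in fullKO were called. At day 4 in both knockouts, and at day 2 in fullKO, Mcm9 was thus called in the same direction as Asf1a, and at day 0 in alphaKO in the opposite one.

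Asf1b (ENSMUSG00000005470.8, chromosome 8, 83955507 to 83970197, plus strand) was the member that rose in fullKO at day 0. It had 45.15, 43.98 and 42.12 CPM in alphaKO, 55.33 and 52.24 CPM in fullKO and 43.28, 35.92 and 40.66 CPM in WT, so fullKO stood above both other genotypes. The log2 fold change of fullKO against WT was 0.43 ± 0.07 (adjusted p = 8.2e-06), and that of alphaKO against fullKO was -0.30 ± 0.07 (adjusted p = 0.00146). Without the first fullKO library of day 0 the alphaKO against fullKO comparison gave -0.23 and an adjusted p of 0.0932. Day 2 libraries ranged over 40.35 to 41.88 CPM in alphaKO, 41.94 to 45.65 CPM in fullKO and 36.15 to 37.9 CPM in WT. Day 4 libraries had 27.91, 27.73 and 28.29 CPM in alphaKO, 23.36, 24.79 and 27.01 CPM in fullKO and 21.25, 18.52 and 19.47 CPM in WT. Asf1b was thus above WT in fullKO at each day, by 0.24 ± 0.07 at day 2 and 0.35 ± 0.08 at day 4, while the difference of its change to day 4 between fullKO and WT was -0.08 ± 0.11 (95% interval -0.30 to 0.14).

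CAF-1 is the replication-coupled chaperone that PCNA brings to DNA polymerases, and its large and middle subunits come from Chaf1a and Chaf1b. Chaf1a (ENSMUSG00000002835.9, chromosome 17, 56040439 to 56072289, plus strand) had 160.7, 161.2 and 168.3 CPM in alphaKO, 177.3 and 165 CPM in fullKO and 169.8, 166.2 and 167.8 CPM in WT at day 0. Its day 2 levels were 149.7, 151.4 and 140.3 CPM in alphaKO, 163.6, 156.2 and 165.6 CPM in fullKO and 139.1, 148.3 and 147 CPM in WT. At day 4, Chaf1a was at 106, 105.5 and 101.2 CPM in alphaKO, 102.5, 102.8 and 101.6 CPM in fullKO and 74.48, 76.81 and 75.66 CPM in WT. All 3 genotypes thus held most of their Chaf1a through day 2, when the fullKO libraries lay above WT (0.16 ± 0.04, adjusted p = 0.0016) and the alphaKO libraries overlapped with it, and at day 4 both knockouts lay above WT: the lowest knockout library had 101.2 CPM and the highest WT library 76.81 CPM. The log2 fold change against WT at day 4 was 0.46 ± 0.05 in alphaKO (adjusted p = 6.93e-12) and 0.43 ± 0.05 in fullKO (adjusted p = 4.31e-11). Chaf1a shares 4648 exonic bases with Ubxn6 on the opposite strand, whose log2 fold changes at day 4 were 0.01 ± 0.13 in alphaKO and -0.10 ± 0.13 in fullKO.

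Chaf1b (ENSMUSG00000022945.12, chromosome 16, 93883901 to 93906115, plus strand) fell earlier and further. Chaf1b libraries of day 0 had 149.8, 153 and 151 CPM in alphaKO, 140.7 and 143.8 CPM in fullKO and 152.3, 149 and 136.3 CPM in WT. By day 2 there were 55.06, 56.54 and 57.45 CPM in alphaKO, 54.45, 51.37 and 55.86 CPM in fullKO and 51.34, 47.45 and 48.59 CPM in WT. Day 4 levels were 47.89, 50.96 and 52.02 CPM in alphaKO, 41.16, 46.12 and 42.91 CPM in fullKO and 16.75, 19.95 and 22.12 CPM in WT. The groups overlapped at day 0, and at day 4 the lowest knockout library stood above the highest WT library at 41.16 against 22.12 CPM. Chaf1b was the member with the largest log2 fold change against WT at day 4 in both knockouts, 1.35 ± 0.07 in alphaKO (adjusted p = 5.98e-21) and 1.14 ± 0.07 in fullKO (adjusted p = 3.85e-18). In WT it fell by 1.57 ± 0.06 to day 2 and by a further 1.32 ± 0.07 to day 4. In alphaKO and fullKO the changes to day 2 were -1.42 ± 0.06 and -1.40 ± 0.06, and those from day 0 to day 4 were -1.59 ± 0.06 and -1.71 ± 0.06. The difference between the knockouts at day 4, 0.21 ± 0.06 (adjusted p = 0.00698), was not called without the first fullKO library of that day (0.17, adjusted p = 0.0522).

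The unequal course of the CAF-1 genes shows in the ratio of their levels per kilobase. Chaf1a over Chaf1b was 0.571 ± 0.016 in alphaKO, 0.636 ± 0.042 in fullKO and 0.61 ± 0.035 in WT at day 0 (SD). The ratio was 1.38 ± 0.079, 1.59 ± 0.02 and 1.56 ± 0.11 in alphaKO, fullKO and WT at day 2. At day 4 it was 1.1 ± 0.071 in alphaKO and 1.25 ± 0.069 in fullKO, against 2.06 ± 0.27 in WT, and the WT libraries, from 1.81 to 2.35, lay above all knockout libraries, which reached 1.32. Asf1a over Asf1b at day 0 was 0.612 ± 0.029 in alphaKO and 0.544 ± 0.025 in fullKO, against 0.836 ± 0.075 in WT. At day 2 the 3 genotypes stood at 0.608 ± 0.015, 0.616 ± 0.018 and 0.604 ± 0.027, with WT below its day 0 ratio. At day 4 they stood at 0.813 ± 0.038, 0.84 ± 0.11 and 0.838 ± 0.071. The ratios are given as a description, with no test.

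**Figure D3:**
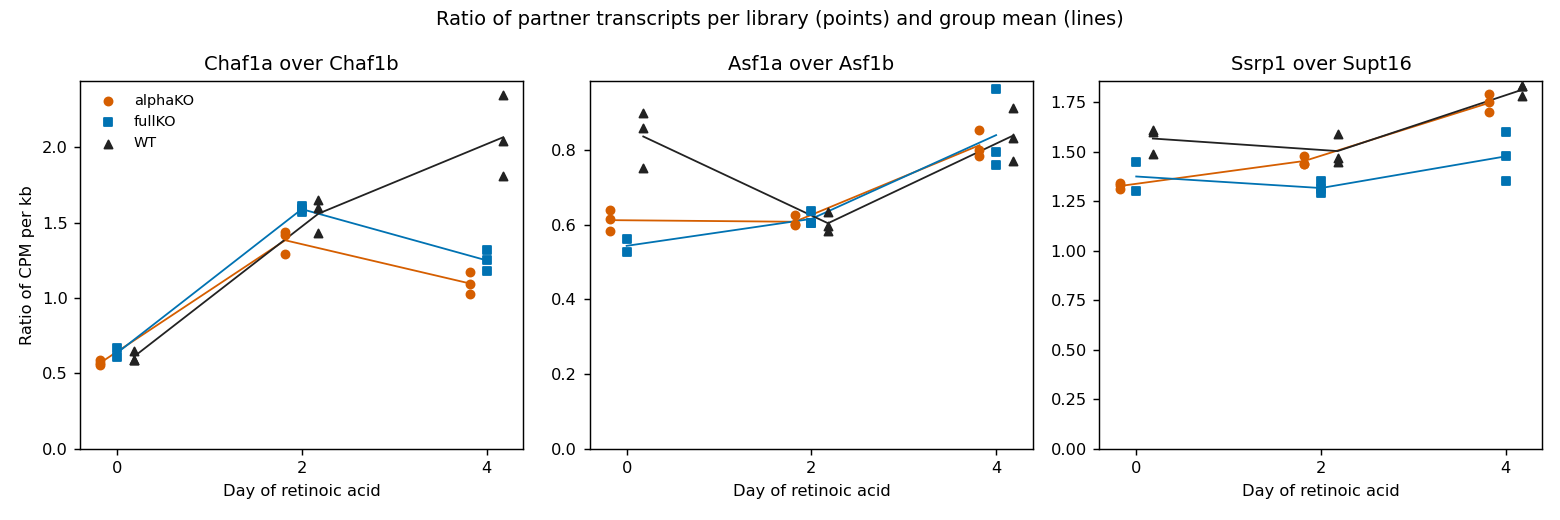
Ratio of CPM per kb (y axis, from 0) between partner or sister genes in each library (points) and as group means (lines) against day (x axis), for alphaKO, fullKO and WT. For Chaf1a over Chaf1b the WT libraries at day 4, at 1.81 to 2.35, lie above the alphaKO libraries, at 1.03 to 1.17, and the fullKO libraries, at 1.18 to 1.32.

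Hira (ENSMUSG00000022702.16, chromosome 16, 18877037 to 18970309, plus strand) codes for a subunit of the complex that deposits H3.3 at active genes and regulatory regions through the whole cell cycle. Hira had 34.63, 37.94 and 33.8 CPM in alphaKO, 40.28 and 38.63 CPM in fullKO and 36.45, 38.25 and 38.68 CPM in WT at day 0. The day 2 libraries had 27.44, 28.35 and 27.4 CPM in alphaKO, 29.33, 26.93 and 25.74 CPM in fullKO and 23.96, 22.41 and 23.55 CPM in WT. Hira at day 4 measured 20.86, 24.11 and 26.81 CPM in alphaKO, 19.24, 22.47 and 23.91 CPM in fullKO and 19.07, 18.88 and 20.97 CPM in WT. Knockout libraries lay above WT at day 2 and overlapped with it at the other days. Its fall in WT by day 4, -0.94 ± 0.08, was the smallest of the 10 members. Against WT the log2 fold change at day 4 was 0.28 ± 0.09 in alphaKO (adjusted p = 0.00612), which without the third alphaKO library of that day became 0.19 with an adjusted p of 0.101. In fullKO it was 0.15 ± 0.09 (95% interval -0.02 to 0.33, adjusted p = 0.146), and without the first fullKO library of that day 0.24 with an adjusted p of 0.0341. The day 2 calls, 0.25 ± 0.08 in alphaKO and 0.23 ± 0.08 in fullKO, were likewise lost without single libraries of either group, the adjusted p then being 0.0518 or 0.0629 in alphaKO and 0.152 or 0.08 in fullKO.

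FACT is a dimer that takes H2A and H2B off nucleosomes ahead of polymerases and puts them back. Ssrp1 (ENSMUSG00000027067.16, chromosome 2, 85037234 to 85047109, plus strand) codes for the smaller subunit. Ssrp1 had 664.2, 645.1 and 614.5 CPM in alphaKO, 658.2 and 594.4 CPM in fullKO and 672.1, 662.8 and 634.5 CPM in WT at day 0. It had 508.6, 519.9 and 509.9 CPM in alphaKO, 463.2, 456.9 and 449.9 CPM in fullKO and 433, 450.1 and 455.7 CPM in WT at day 2. Ssrp1 then reached 374.4, 402.9 and 390.1 CPM in alphaKO, 325.6, 336.2 and 332 CPM in fullKO and 300.3, 268.8 and 295.3 CPM in WT at day 4. The alphaKO libraries were the highest at days 2 and 4, and the fullKO libraries overlapped with WT at day 2 and lay between alphaKO and WT at day 4. The log2 fold change against WT was 0.20 ± 0.04 at day 2 (adjusted p = 9.06e-05) and 0.43 ± 0.04 at day 4 (adjusted p = 3.28e-12) in alphaKO, and 0.03 ± 0.04 (95% interval -0.05 to 0.12) and 0.20 ± 0.04 (adjusted p = 7.76e-05) in fullKO. Between the knockouts, alphaKO was above fullKO by 0.17 ± 0.04 at day 2 (adjusted p = 0.00151) and 0.23 ± 0.04 at day 4 (adjusted p = 1.6e-05).

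Supt16 (ENSMUSG00000035726.8, chromosome 14, 52160414 to 52197416, minus strand) codes for SPT16, the larger FACT subunit, and was the member that was higher in alphaKO than in WT at all 3 days. It had 672.2, 651.2 and 633.6 CPM in alphaKO, 613.8 and 614.8 CPM in fullKO and 567.8, 554.4 and 575.9 CPM in WT at day 0. Supt16 at day 2 gave 464.9, 487.8 and 476.2 CPM in alphaKO, 462.1, 471.8 and 471.4 CPM in fullKO and 402.8, 412.8 and 386.7 CPM in WT. The day 4 values were 296.7, 309.8 and 294.4 CPM in alphaKO, 324.5, 306.3 and 278.9 CPM in fullKO and 227.9, 198 and 218.1 CPM in WT. Every knockout library lay above every WT library of its day. Against WT, Supt16 had log2 fold changes of 0.20 ± 0.04, 0.25 ± 0.04 and 0.49 ± 0.05 in alphaKO at days 0, 2 and 4, and 0.12 ± 0.05 (adjusted p = 0.054), 0.23 ± 0.04 and 0.50 ± 0.05 in fullKO. On chromosome 14, 471 tested genes averaged 1 CPM or more and had a median of 0.11, 0.14 and 0.11 in alphaKO on the same days, and of 0.01, 0 and -0.01 in fullKO; its part in the alphaKO values was not tested. Within 5 Mb of Supt16 the medians were 0.07, 0.12 and 0.09 in alphaKO. At day 0 the ratio of Ssrp1 to Supt16 per kilobase was 1.33 ± 0.015 in alphaKO and 1.37 ± 0.1 in fullKO. In WT it was 1.56 ± 0.069. Day 2 ratios were 1.45 ± 0.021, 1.32 ± 0.033 and 1.5 ± 0.075 in alphaKO, fullKO and WT. Those at day 4 were 1.75 ± 0.043, 1.48 ± 0.13 and 1.81 ± 0.03 in the same order. The FACT genes of fullKO thus stood nearer to each other than those of WT at all 3 days. Those of alphaKO did so at day 0, and at days 2 and 4 their ratios overlapped with WT. Supt16 shares 1057 exonic bases with Rpgrip1 on the opposite strand, whose median count was 89.5. Rpgrip1 had log2 fold changes against WT of 0.77, 0.57 and 0.62 in fullKO at days 0, 2 and 4, all called higher. In alphaKO they were 0.43, 0.44 and -0.17, and none was called.

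Anp32e (ENSMUSG00000015749.12, chromosome 3, 95929246 to 95947390, plus strand) codes for the chaperone that takes H2A.Z out of nucleosomes. Anp32e had 405.5, 411.7 and 384.4 CPM in alphaKO, 428.9 and 413 CPM in fullKO and 459.2, 444.4 and 472.4 CPM in WT at day 0. Day 2 libraries were at 273.5, 295.6 and 272.2 CPM in alphaKO, 255.2, 254 and 249.5 CPM in fullKO and 208, 212.7 and 221.8 CPM in WT. On day 4 there were 228.4, 258.4 and 247.3 CPM in alphaKO, 169.8, 156.8 and 159.5 CPM in fullKO and 110.2, 110.3 and 120.8 CPM in WT. The 3 genotypes did not overlap at day 2 or day 4, in the order alphaKO, fullKO, WT, and at day 0 both knockouts lay below WT. Anp32e had a log2 fold change against WT at day 4 of 1.10 ± 0.05 in alphaKO (adjusted p = 4.94e-24) and 0.51 ± 0.05 in fullKO (adjusted p = 1.64e-12). Anp32e had the largest difference between the knockouts among the members, 0.60 ± 0.05 at day 4 (adjusted p = 1.75e-14), after 0.15 ± 0.04 at day 2 (adjusted p = 0.0095). The day 2 value was 0.11 with an adjusted p of 0.114 without the second alphaKO library. At day 0 it was lower than WT by -0.20 ± 0.04 in alphaKO (adjusted p = 0.000294) and -0.12 ± 0.05 in fullKO (adjusted p = 0.0464). The fullKO call rests on single libraries: without the second fullKO library its adjusted p was 0.303, and without the first or the third WT library 0.0774 or 0.151.

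Npm1 (ENSMUSG00000057113.13, chromosome 11, 33152287 to 33163206, minus strand) is the most abundant of the 10 transcripts. At the start it had 3734, 3626 and 3519 CPM in alphaKO, 4103 and 3972 CPM in fullKO and 3967, 3866 and 3937 CPM in WT. Npm1 on day 2 gave 2096, 2197 and 2167 CPM in alphaKO, 2275, 2212 and 2281 CPM in fullKO and 1724, 1825 and 1695 CPM in WT. By day 4 the levels were 1194, 1244 and 1181 CPM in alphaKO, 1191, 1150 and 1167 CPM in fullKO and 936.2, 889.8 and 923.6 CPM in WT. All knockout libraries stood above WT at days 2 and 4, while at day 0 alphaKO was the lowest of the 3 genotypes. Against WT the log2 fold changes were -0.11 ± 0.03, 0.30 ± 0.03 and 0.40 ± 0.03 in alphaKO at days 0, 2 and 4 (adjusted p = 0.00456, 2.17e-10 and 4.18e-14), and 0.04 ± 0.04, 0.37 ± 0.03 and 0.35 ± 0.03 in fullKO. The value of alphaKO against fullKO at day 0, -0.15 ± 0.04 (adjusted p = 0.000859), became -0.10 with an adjusted p of 0.128 without the first fullKO library, and that of alphaKO against WT at day 0 had an adjusted p of 0.0563 where only these groups were fitted. Processed copies of Npm1 lie elsewhere in the genome, and how reads matching several places were counted is not given in the sources used here.

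**Figure D4:**
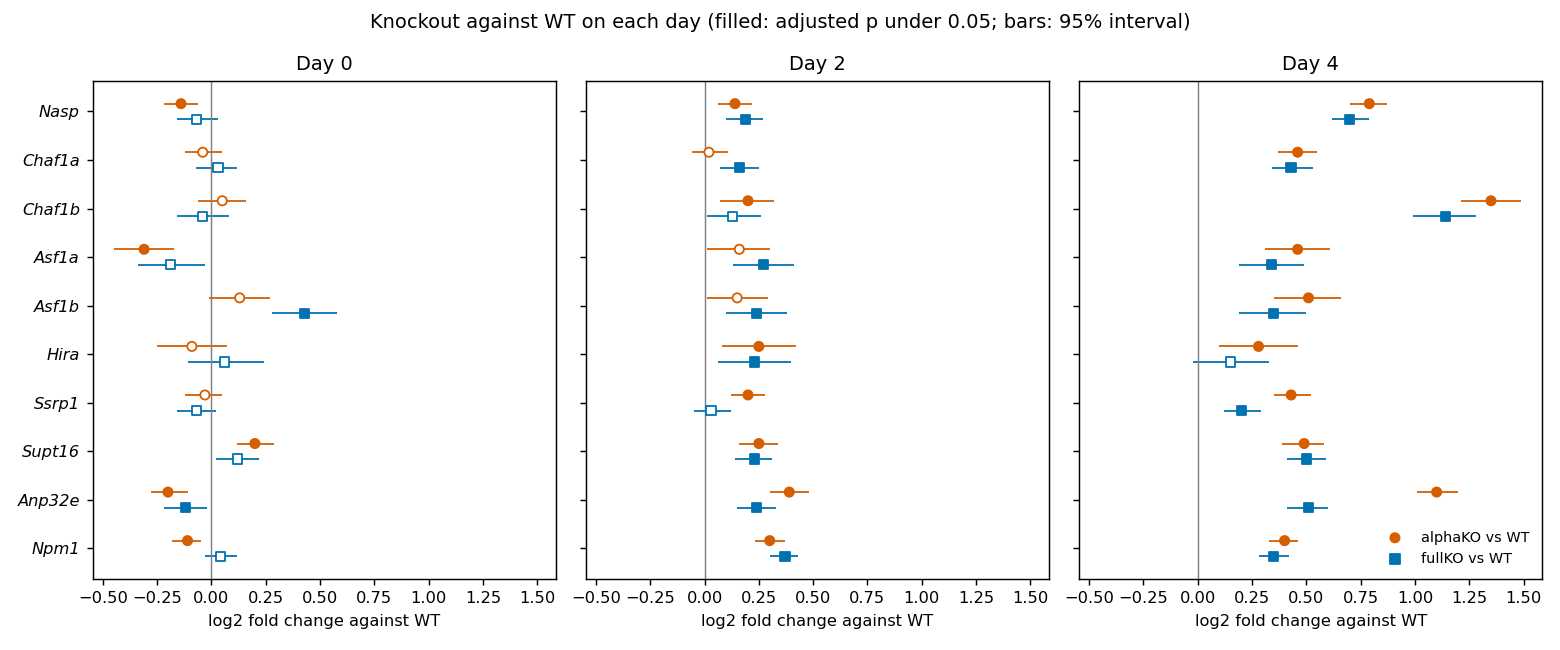
Log2 fold change against WT (x axis) of each chaperone gene (rows) in alphaKO (orange circles) and fullKO (blue squares) at days 0, 2 and 4, with 95% intervals of the fit; filled symbols have an adjusted p under 0.05. Values lie on both sides of 0 at day 0 and all above 0 at day 4, up to 1.35 for Chaf1b in alphaKO.

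The knockouts differed from each other in few members. At day 0, alphaKO was below fullKO for 2, Asf1b and Npm1, where 14.6% of genes were called lower. At day 2 it was above fullKO for 2, Ssrp1 and Anp32e (13%), and below it for 1, Chaf1a, by -0.14 ± 0.04 (adjusted p = 0.0121; background 12.3%). The Chaf1a call was lost when any of 3 single libraries was left out, the third alphaKO library or the first or the third fullKO library of day 2, with adjusted p from 0.0602 to 0.115. At day 4 alphaKO was above fullKO for 3, Chaf1b, Ssrp1 and Anp32e (17.4%). Shares of the 10 members lay near the background at days 0 and 2 and above it at day 4, where 3 genes were called.

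Partners of the H3-H4 chaperones moved less evenly than the members. Of 19 genes (Rbbp4, Rbbp7, Hat1, Dnajc9, Mcm2, Tonsl, Mms22l, Cdan1, Ipo4, Ubn1, Ubn2, Cabin1, Daxx, Atrx, Hjurp, Mis18a, Oip5, Supt6 and Spty2d1), 5 rose and 12 fell in WT by day 4, with a median log2 fold change of -0.49, where 40.7% of all tested genes rose and 36.7% fell. Against WT, 11 were higher and 2 lower in alphaKO at day 4 (median 0.28), and 10 were higher and 5 lower in fullKO (0.12). Of all tested genes, 28.7% were called higher and 24% lower in alphaKO at that day, with a median of 0.06, and 25.1% and 24.5% in fullKO, with a median of 0.02. Hjurp, the chaperone of the centromeric histone CENP-A, led in both, at 1.28 ± 0.04 in alphaKO and 1.10 ± 0.04 in fullKO, and was above WT already at day 0 by 0.69 ± 0.04 and 0.87 ± 0.05. Next in alphaKO was Tonsl, which reads newly placed H4 with its partner Mms22l, at 0.63 ± 0.07, and in fullKO Oip5, a centromere licensing factor, at 0.78 ± 0.11. Mcm2, a helicase subunit that binds H3 and H4, and Hat1, which acetylates new H4, had log2 fold changes of -2.17 and -1.98 in WT by day 4. Daxx, a chaperone of H3.3, was below WT at day 0 by -0.44 ± 0.05 in alphaKO and -0.33 ± 0.06 in fullKO.

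Among 12 genes of H2A-H2B and H2A.Z handling (Npm3, Ncl, Anp32a, Anp32b, Vps72, Znhit1, Srcap, Ep400, Ino80, Ruvbl1, Ruvbl2 and Actl6a), 11 fell in WT by day 4, with a median of -1.75, where 36.7% of all tested genes fell and their median was 0.10. Against WT at day 4, 10 were higher in alphaKO (median 0.41), and 8 were higher and 1 lower in fullKO (0.28), beside 28.7% and 25.1% of all tested genes called higher and 24% and 24.5% called lower. Anp32a, a relative of Anp32e that binds histones, was higher by 1.27 ± 0.04 in alphaKO and 0.99 ± 0.04 in fullKO, and nucleolin (Ncl), a nucleolar histone-binding protein, by 0.90 ± 0.03 and 0.86 ± 0.03. Ncl was above WT at day 0 too, by 0.47 ± 0.03 and 0.58 ± 0.04, unlike Npm1 at that day. Of 12 nucleolar genes that work beside Npm1 in ribosome assembly (Fbl, Nop56, Nop58, Nop2, Nolc1, Dkc1, Gar1, Nhp2, Rrp9, Bop1, Pes1 and Gnl3), all 12 fell in WT by day 4 (median -1.77). At day 0, 1 was higher and 8 lower in alphaKO than in WT, and 3 were higher and 1 lower in fullKO, where 17.7% and 16.2% of all tested genes were called higher and 20.9% and 17.7% lower. By day 4, 9 were higher and 1 lower in alphaKO (median 0.15), and 6 were higher and 1 lower in fullKO (0.12), with the all-gene medians at 0.06 and 0.02. Dkc1, the pseudouridine synthase of H/ACA particles, was higher by 1.10 ± 0.05 in alphaKO and 1.18 ± 0.05 in fullKO, and Nop58, a core box C/D protein, by 0.81 ± 0.04 and 0.80 ± 0.04. Nop58 was above WT at day 0 too, by 0.35 ± 0.04 in alphaKO and 0.48 ± 0.05 in fullKO. For genes of the lists, unlike for members, values of other genes on the same chromosome were not looked at.

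Cell cycle genes fell by day 4 as the chaperones did, and most were higher in the knockouts at that day. Of 19 S phase genes (Mcm3, Mcm4, Mcm5, Mcm6, Mcm7, Pcna, Rrm1, Rrm2, Cdc6, Cdt1, Gins1, Gins2, Fen1, Lig1, Pola1, Prim1, Tyms, Ung and Slbp), all 19 fell in WT by day 4, with a median of -2.16, against 36.7% of all tested genes. At day 4, 18 were higher in each knockout than in WT, with a median of 0.97 in alphaKO and 0.72 in fullKO, where the medians of all tested genes were 0.06 and 0.02 and 28.7% and 25.1% of them were called higher. Their summed level at that day was 2588 to 2741 CPM in alphaKO and 2395 to 2431 CPM in fullKO, against 1352 to 1385 CPM in WT. The sums at day 0 had been 6537 to 6960, 6834 to 6909 and 5816 to 6011 CPM in the same order. At day 0, 5 of the 19 were called higher and 2 lower in alphaKO, and 3 higher and 1 lower in fullKO. Of all tested genes, 17.7% and 16.2% were called higher there and 20.9% and 17.7% lower. At day 4 Ung, which removes uracil from new DNA, was higher by 1.62 ± 0.08 in alphaKO and 1.52 ± 0.08 in fullKO. Mcm3, of the replicative helicase, was higher by 1.42 ± 0.04 and 1.19 ± 0.04. Mcm3 was above WT already at day 0, by 0.56 ± 0.04 and 0.53 ± 0.04. All 15 genes of G2 and mitosis (Mki67, Top2a, Ccnb1, Cdk1, Bub1, Plk1, Aurka, Aurkb, Cenpe, Cenpf, Tpx2, Ube2c, Hmmr, Nusap1 and Ccna2) fell in WT by day 4 and were higher in both knockouts at that day, with medians of 0.80 in alphaKO and 0.53 in fullKO. Their summed level was 2323 to 2389 CPM in alphaKO, 1960 to 2034 CPM in fullKO and 1279 to 1364 CPM in WT. ESC markers moved alongside, with sums of 548 to 584.6 CPM in alphaKO, 771.8 to 788.9 CPM in fullKO and 115.8 to 129.2 CPM in WT at day 4, and 8 of 8 called higher in alphaKO and 7 of 8 in fullKO. Much of the gap in these sums was again Tfcp2l1, with means of 275.1 CPM in alphaKO, 360.9 CPM in fullKO and 22.5 CPM in WT. At day 4 the S phase sum was higher in alphaKO than in fullKO, and the ESC marker sum was lower. Of the members, Chaf1b, Ssrp1 and Anp32e were called higher in alphaKO than in fullKO (background 17.4%), and 7 were not called. The part of cell cycle and ESC genes in the chaperone values was not tested.

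**Figure D5:**
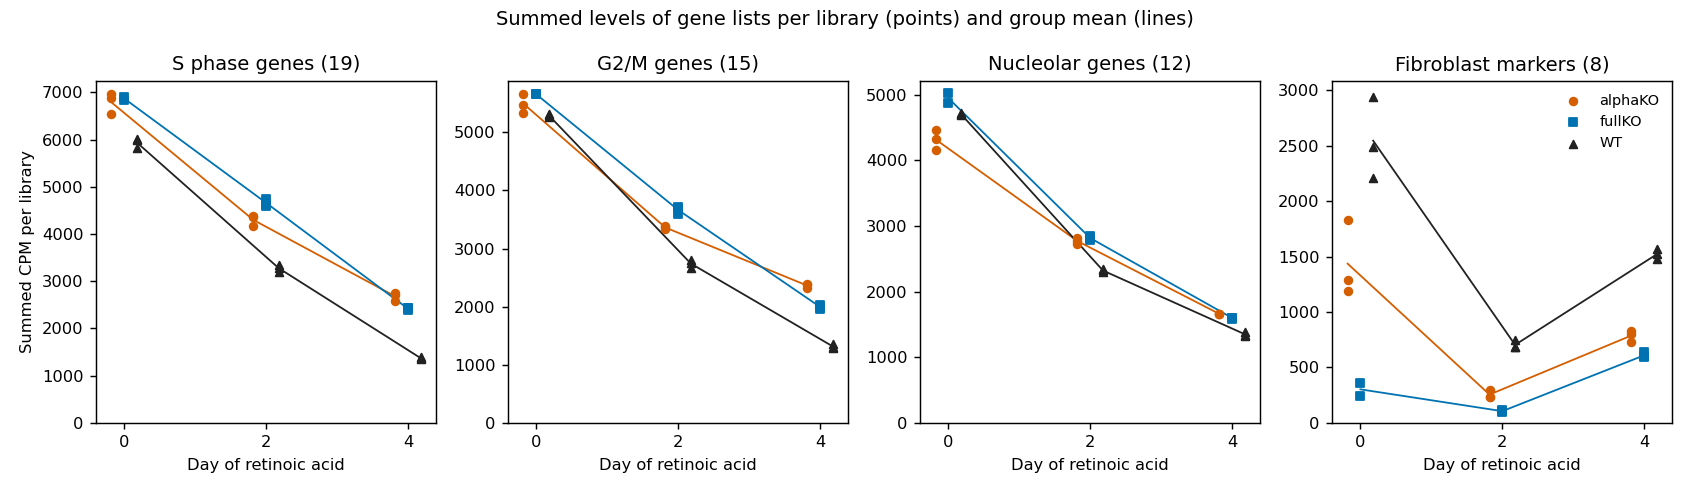
Summed CPM per library (y axis, points; lines join group means) of S phase genes, genes of G2 and mitosis, nucleolar genes and fibroblast markers against day (x axis) in alphaKO, fullKO and WT. For the cell cycle lists the WT points are lowest at day 4, at 1352 to 1385 CPM for S phase, and for the fibroblast markers they are highest at every day.

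The genes whose group means followed each member most closely were taken by Pearson r of mean log2 CPM over the 9 groups, among 7687 protein-coding genes that averaged 20 CPM or more. All groups share the same course of days, so high values are the rule, and no test is attached. Nasp went with Rpa2 (r = 0.9959), a subunit of the single-strand binding protein RPA, Tipin (0.9957), of the fork protection complex, and Cdt1 (0.9957), which licenses origins. Chaf1a went with Melk (0.9957), Trip13 (0.9951) and Ect2 (0.9926), and Chaf1b with Cdca7 (0.9924), Rad54l (0.9913) and Fkbp5 (0.9874). Closest to Asf1a were Chn1 (0.9842), Tfdp2 (0.9834) and Tyms (0.9795), and to Asf1b Mns1 (0.9855), Safb (0.985) and Ckap2l (0.9842). Hira was followed by Qtrt2 (0.9973), Tango6 (0.9962) and Mrpl4 (0.9955). Ssrp1 had Lsm4 (0.9933), Eif1ax (0.9931) and BC055324 (0.9909), and Supt16 had Blm (0.9966), Mcm8 (0.9962) and Tnpo3 (0.9959). For Anp32e they were Hmgb1 (0.9938), Srsf2 (0.9887) and Sfpq (0.9885) and for Npm1 Serbp1 (0.9982), Rpl7a (0.9979) and Mrpl42 (0.9979). Between members, r ran from 0.81 for Chaf1b with Asf1b to 0.99 for Nasp with Ssrp1 or Npm1, and was 0.84 for the CAF-1 genes, 0.86 for the ASF1 genes and 0.97 for the FACT genes.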

How the data were processed

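The values are raw counts of reads per gene and library as deposited. Per the submitters' processing notes, FastQC was used for read quality and STAR 2.7.1a and the mm10 build for alignment. A stranded poly(A) kit was used, per the labels' protocols. How reads were assigned to genes (tool, strand, annotation) is not given in the sources used here. IDs without version were matched to GENCODE M21 (GRCm38), with 55230 of 55471 found.

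In edgeR 4.0.16 (R 4.3.3), counts were filtered with filterByExpr, scaled by TMM and fitted by quasi-likelihood with 9 group means; the residual degrees of freedom were 17 and the common biological coefficient of variation was 0.0495. There were 20 comparisons, each with Benjamini-Hochberg adjustment over 18412 genes. Errors (±) of log2 fold changes are SE and those of levels and ratios are SD. Levels per kilobase use the union of exons. The procedure was tested on simulated data. Named genes are the 10 members, Nap1l1, the 3 genes most like each member, and up to 3 called genes of largest change per list and comparison; genes on the strand opposite to a member were named after their overlap was seen. Members, lists and rules were chosen with earlier results of these data known. Some genes of the lists are not reported here. Promoter windows come from RefSeq (GRCm38.p6). The alternatives were DESeq2 1.42.0, RLE scaling, TMM without genes of chromosomes 1, 14 and Y, a stricter filter and none, the replicate number as a block, a fit of the compared groups alone, and leaving out single libraries. Figures were drawn in Python 3.11.15.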

Additional observations from a re-analysis of the deposited data

Results flagged for a closer look

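The results below are those where the test of a difference between 2 genotypes passed the threshold, in the change over time or on a given day. The report's edgeR fit gave each value as a log2 difference. In the change from day 0 to day 2, alphaKO exceeded WT by 0.28 for Nasp, 0.47 for Asf1a, 0.34 for Hira, 0.23 for Ssrp1, 0.58 for Anp32e and 0.41 for Npm1. In the change from day 0 to day 4, alphaKO exceeded WT for every member: by 0.93 for Nasp, 0.50 for Chaf1a, 1.30 for Chaf1b, 0.77 for Asf1a, 0.38 for Asf1b, 0.37 for Hira, 0.47 for Ssrp1, 0.28 for Supt16, 1.30 for Anp32e and 0.51 for Npm1. The value for Hira at day 4 was 0.28 with an adjusted p of 0.059 without the third alphaKO library of day 4. Its value at day 2 was 0.307 with an adjusted p of 0.0506 without the third alphaKO library of day 0.

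For fullKO the excess over WT in the change to day 2 was 0.25 for Nasp, 0.45 for Asf1a, 0.36 for Anp32e and 0.33 for Npm1. In the change to day 4 it was 0.77 for Nasp, 0.41 for Chaf1a, 1.17 for Chaf1b, 0.53 for Asf1a, 0.27 for Ssrp1, 0.38 for Supt16, 0.63 for Anp32e and 0.31 for Npm1. As all of these changes are negative within each genotype, a positive difference is a less negative change in the knockout.

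Between the knockouts on the same day, alphaKO minus fullKO was -0.30 for Asf1b and -0.15 for Npm1 at day 0, -0.14 for Chaf1a, 0.17 for Ssrp1 and 0.15 for Anp32e at day 2, and 0.21 for Chaf1b, 0.23 for Ssrp1 and 0.60 for Anp32e at day 4. Groups of 2 or 3 libraries are too small for a test of single outlying libraries, and none was made.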

How the results depend on the processing

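No call of a member changed direction under any alternative run. Of 1400 values of single members under the alternatives that keep all libraries, 1388 kept their side of the threshold, 6 lost a call and 6 gained one; with 1 library left out, 1349 of 1380 kept it, 20 lost a call and 11 gained one. For fullKO against WT at day 0, the count of members lower was 1 and became 2 with DESeq2, with RLE scaling and with a stricter filter, and 0 with TMM outside chromosomes 1, 14 and Y, with no filter and with a replicate block; the count higher, 1, became 2 with TMM outside those chromosomes, with no filter and with only the groups compared. The members concerned were Anp32e, Asf1a and Supt16. Members lower in alphaKO than fullKO at day 2 numbered 1, and 0 with no filter. The cause was not tested. With 1 library left out, members lower in fullKO than WT at day 0 ran from 0 to 2, members higher in alphaKO than WT at day 0 from 1 to 2, members lower in alphaKO than fullKO from 0 to 2 at day 0 and from 0 to 1 at day 2, and members higher there at day 2 from 1 to 2. All genes called between alphaKO and fullKO at day 0 numbered 5344, and 3521 to 5100 with 1 library left out, the lowest without the first fullKO library.

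Replicate numbers do not pair the libraries: over 100 pairs of libraries with the same number, the correlation of their deviations ran from -0.04 to 0.05, and 30.8% of libraries were most like one of their own number. With the replicate block, the members lower in fullKO at day 0 numbered 0, through Anp32e (-0.12, adjusted p = 0.0641), and no other member's call changed. Hira, the member with the lowest median count, has the widest 95% intervals against WT.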

Other observations

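Marker lists for early lineages give the setting of the later days. Of 5 neural progenitor markers (Pax6, Sox1, Nes, Zic1 and Olig2), 3 rose and 1, Olig2, fell in WT by day 4. Of all tested genes, 40.7% rose and 36.7% fell in that comparison. Against WT at day 4, 3 were called higher and 2 lower in alphaKO (median log2 fold change 0.54), where 28.7% of all tested genes were called higher and 24% lower. In fullKO 1 was higher and 3 lower (median -0.67), where the shares were 25.1% and 24.5%. Olig2, a transcription factor of neural progenitors, was higher in both, with low means of 1.492 CPM in alphaKO, 1.394 CPM in fullKO and 0.1462 CPM in WT. Its means at day 0 had been 33.04 CPM in alphaKO, 36.9 CPM in fullKO and 31 CPM in WT. Sox1, another such factor, was higher in alphaKO at day 4 by 2.19 ± 0.12. Pax6 had day 4 means of 34 CPM in alphaKO, 11.76 CPM in fullKO and 23.3 CPM in WT. Zic1 stood at 12.9 CPM in alphaKO and 12.53 CPM in fullKO, against 19.95 CPM in WT. Nes, an intermediate filament gene of neural progenitors, was lower than WT at day 4 by -1.31 ± 0.06 (log2) in alphaKO and -1.37 ± 0.06 in fullKO. All 6 primitive endoderm markers (Gata6, Gata4, Sox17, Foxa2, Sox7 and Dab2) rose in WT by day 4, as did 40.7% of all tested genes. Against WT at that day, 5 of the 6 were called higher in each knockout (background 28.7% in alphaKO and 25.1% in fullKO), with summed levels of 361.8 to 372.4 CPM in alphaKO and 294.3 to 314.8 CPM in fullKO, against 230.7 to 236.7 CPM in WT. Sox7, an endoderm transcription factor, was higher by 2.08 ± 0.14 in alphaKO and 1.52 ± 0.14 in fullKO. Lineage markers of these bulk libraries thus also differed between genotypes, and their part in the chaperone values was not tested.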
